A study of Mus musculus with 8 samples.

Results

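The scaffold of the sarcomere was followed through 9 genes, picked by symbol from the 42391 genes of the raw count table: Actn2, Actn3, Ttn, Tcap, Myoz1, Myoz2, Ldb3, Myom1 and Myom2. All 9 were found. RNA was sequenced from 8 samples of wild-type mouse myoblasts, 2 per group, to ask what depletion of Septin9, a cytoskeletal septin, does to gene expression. Control C2C12 cells and control primary myoblasts were given an siRNA without a target, and Septin9-deficient cells an siRNA against Septin9. C2C12 cells, a mouse myoblast line, were transfected at 50 nM siRNA, with 100 nM over the initial 5 h, and were collected after 60 h, of which the last 12 h were in differentiation medium. Primary myoblasts came from hindlimb muscle of 5-week-old mice and were depleted of fibroblasts by plating on collagen. They were kept in proliferation medium and collected after 48 h, so cell type, medium and time after transfection differ together and cannot be told apart. A single siRNA was used against Septin9, and each replicate number stands for 1 of 2 independent experiments.

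Sarcomeres are the contractile units of striated muscle, bounded by Z-discs and centred on the M-band. At the Z-disc the sarcomeric α-actinins cross-link actin filaments of neighbouring sarcomeres, telethonin (Tcap) caps the end of the giant protein titin (Ttn), and the myozenins and the PDZ-LIM protein of Ldb3 bind α-actinin. Titin spans from the Z-disc to the M-band, where the myomesins Myom1 and Myom2 link it to the thick filaments. These genes are switched on as myoblasts leave the cell cycle and build myofibrils.

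RefSeq promoter windows, 250 bases before to 50 after a start site on GRCm38.p6, were on hand for 5 of the 9 genes, and those of 4 are printed as 1 example for each position in the sarcomere: α-actinin (Actn2), Z-disc adaptor (Ldb3), titin (Ttn) and M-band (Myom1). Capitals mark 3 motifs known from muscle promoters: the E-box CANNTG, some forms of which are bound by MyoD and myogenin, the MEF2 box and the CArG box, bound by serum response factor. E-boxes were marked whatever their middle bases, so a mark is not by itself a MyoD or myogenin site. All lie as printed on the coding strand, at chr13:12340683-12340982 (minus strand) for Actn2, chr14:34588632-34588931 (minus strand) for Ldb3, chr2:76982498-76982797 (minus strand) for Ttn and chr17:71019307-71019606 (plus strand) for Myom1. The windows of Myom1 and Ldb3 lie inside the annotated genes, at start sites downstream of the outermost ones (71003332 for Myom1 and 34590314 for Ldb3).
Actn2: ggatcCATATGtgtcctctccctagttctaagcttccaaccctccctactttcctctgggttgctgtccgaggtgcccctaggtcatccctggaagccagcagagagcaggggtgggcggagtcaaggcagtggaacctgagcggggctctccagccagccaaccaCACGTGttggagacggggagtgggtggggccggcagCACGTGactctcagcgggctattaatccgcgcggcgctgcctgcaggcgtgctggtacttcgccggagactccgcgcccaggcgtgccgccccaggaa
Ldb3: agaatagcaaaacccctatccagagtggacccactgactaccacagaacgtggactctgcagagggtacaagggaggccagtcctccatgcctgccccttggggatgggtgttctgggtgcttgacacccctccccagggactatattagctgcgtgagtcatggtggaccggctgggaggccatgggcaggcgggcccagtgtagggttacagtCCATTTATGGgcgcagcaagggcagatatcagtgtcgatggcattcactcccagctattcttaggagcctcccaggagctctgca
Ttn: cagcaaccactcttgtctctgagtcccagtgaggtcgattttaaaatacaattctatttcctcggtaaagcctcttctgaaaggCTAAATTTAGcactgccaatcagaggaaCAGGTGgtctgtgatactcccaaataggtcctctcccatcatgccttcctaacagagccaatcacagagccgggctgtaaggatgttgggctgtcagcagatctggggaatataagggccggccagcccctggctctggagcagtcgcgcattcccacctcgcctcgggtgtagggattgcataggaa
Myom1: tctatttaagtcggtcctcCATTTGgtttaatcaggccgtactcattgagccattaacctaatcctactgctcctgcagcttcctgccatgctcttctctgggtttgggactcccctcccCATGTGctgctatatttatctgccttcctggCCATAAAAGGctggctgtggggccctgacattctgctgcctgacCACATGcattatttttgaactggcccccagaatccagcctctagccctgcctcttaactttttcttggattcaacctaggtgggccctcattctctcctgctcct

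Actn2 held 3 E-boxes, Myom1 held 3 E-boxes and a CArG box, and Ttn held 1 E-box and a MEF2 box. The window of Myoz2, not printed, held 2 E-boxes and a MEF2 box. Neither of the 2 overlapping Ldb3 windows held an E-box, and both held the same CArG box. All 3 motifs read the same on both strands and no match overlapped another. Over 32851 promoter windows of the same length, 72.3% held an E-box, 1.86% a MEF2 box and 1.63% a CArG box, and a match describes letters only, not binding. Actn3, Tcap, Myoz1 and Myom2 had no entry.

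Between 20898611 and 27223414 reads were counted per sample. Septin9 was lower in every Septin9-deficient sample: 429 and 441 CPM (counts relative to library size, TMM-scaled within a cell type) in control C2C12 cells against 151 and 189, and 364 and 458 in control primary myoblasts against 199 and 157. The fitted levels were 38.9% of control in C2C12 cells (adjusted p = 5.11e-09, edgeR quasi-likelihood test) and 43.2% in primary myoblasts (adjusted p = 0.000134). For the marker lists, and for the sums of early differentiation and dividing-cell genes, CPM were scaled over all 8 samples. Of 6 myoblast markers, 5 reached 1 CPM in both samples of every group, and Chodl reached 1 CPM in none. Endothelial, immune and adipocyte marker lists summed to at most 4.77, 2.75 and 0.143 CPM in any sample. Fibroblast markers summed to between 2369 and 3052 CPM in C2C12 cells, mostly Col3a1. In primary myoblasts they were higher in replicate 2 (842 CPM in control, 1009 in Septin9-deficient cells) than in replicate 1 (352 and 322). Col3a1 again made up most of each sum, at 343.8 and 538.7 CPM in primary control replicates 1 and 2. Other markers lay further apart in these controls. Col1a1 was at 6.83 and 248.7 CPM, Pdgfra at 1.03 and 31.7, Dcn at 0.258 and 13.3 and Thy1 at 0.515 and 8.55. The part of this difference between replicates in the result was not tested. Of the cardiac markers Myl7 was at 0 in every sample and Nppa and Nppb stayed at or under 0.372 CPM, and the list summed to 82.6 to 109 CPM in C2C12 cells and 377 to 1329 in primary myoblasts, mostly Tnnt2. The 6 genes of early differentiation, with Myog and Mymk among them, summed to 23.2 and 92.3 CPM in C2C12 controls, labelled as differentiating, and to 12676 and 3362 CPM in primary controls, labelled as proliferating.

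In the controls the 9 genes stood far higher in primary myoblasts than in C2C12 cells. All 9 of 9 were called higher there, against 19.6% of the 17918 genes tested, where called means an adjusted p under 0.05 in edgeR together with a change of at least 1.5-fold. To compare genes with each other, counts were divided by the length of the merged exons (RPKM, the CPM per kilobase, with 1 scaling over all 8 samples). In C2C12 controls 3 genes were above 1 RPKM on average, Actn3 at 10.7 ± 7.24 (SD, n = 2), Ldb3 at 3.58 ± 0.763 and Myom2 at 1.43 ± 0.741. The other 6 lay between 0.0107 RPKM for Myoz2 and 0.111 for Tcap, their ranges overlapped from neighbour to neighbour, and their order was not the same in both controls. In primary controls the order was the same in both samples. Actn3 led at 112 ± 60.8 RPKM, followed by Actn2 at 58.3 ± 37.9, Tcap at 37.5 ± 22.5, Ldb3 at 29.9 ± 22.2, Myom2 at 20.9 ± 17.7, Myom1 at 11.9 ± 9.79, Myoz2 at 6.42 ± 3.81, Ttn at 3.58 ± 2.92 and Myoz1 at 0.674 ± 0.00918. Each gene's range overlapped that of its neighbour in this order except between Ttn and Myoz1, and every gene but Myoz1 was over 2 times as high in control replicate 1 as in control replicate 2. With the longest transcript as length, Tcap, Ldb3 and Myom2 changed places among themselves, at 37.5, 35.7 and 36.4 RPKM.

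**Figure D1:**
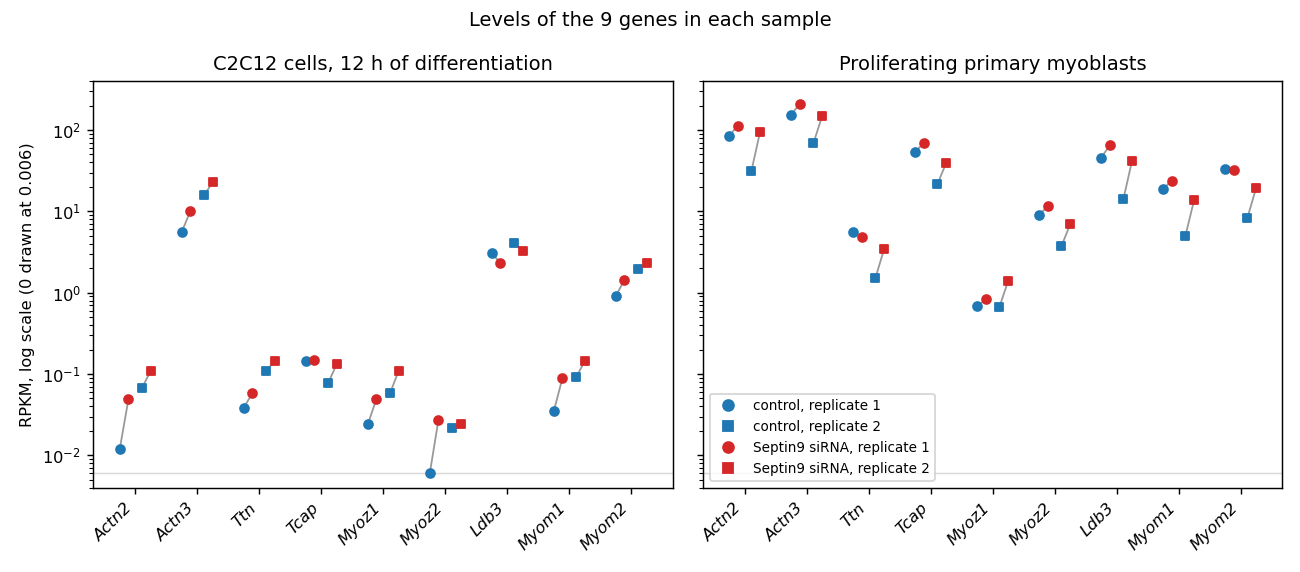
RPKM on a log axis for the 9 genes in C2C12 cells (left) and primary myoblasts (right), where each line joins the control (blue) and Septin9-deficient (red) sample of a replicate pair. Actn3, Ldb3 and Myom2 are the genes above 1 RPKM on average in C2C12 controls, and Ldb3 is the one of these whose lines go down in both pairs there.

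The gap between the controls was widest for Actn2, the α-actinin of heart and all skeletal fibres. It had 8 counts over both C2C12 controls and 10744 over both primary controls, a ratio of rates of 1264 (95% exact interval 641 to 2928, counting error only). Tcap had 5 against 1732 counts (ratio 326, 139 to 1005) and Myoz2, the slow-fibre and heart myozenin, 2 against 1069 (ratio 503, 139 to 4158). Myoz2 was at 0 in control replicate 1 of C2C12 cells, where 3 counts would be 0.143 CPM. Myoz1, the fast-fibre myozenin, was low in both cell types, with 4 against 64 counts (ratio 15.1, 5.60 to 56.9).

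For the genes with more counts the fitted log2 differences, primary minus C2C12 control, were 7.51 for Myom1 (SE 0.872, adjusted p = 0.00133, edgeR), 5.58 for Ttn (SE 0.892, adjusted p = 0.00393), 3.86 for Myom2 (SE 0.749, adjusted p = 0.00800), 3.38 for Actn3 (SE 0.676, adjusted p = 0.00894) and 3.06 for Ldb3 (SE 0.562, adjusted p = 0.00654). The 3 genes with the smallest of these differences were the 3 already above 1 RPKM in C2C12 controls. Both controls of primary myoblasts were above both controls of C2C12 cells for every gene, and all 9 calls held under each of the 10 alternatives tried.

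The make-up of the scaffold differed along with its level. Actn2 gave 0.214% to 0.483% of the summed RPKM of Actn2 and Actn3 in the 4 C2C12 samples and 31.4% to 39.2% in the 4 primary samples. Actn3 alone gave 57.1% to 78.5% of the summed RPKM of the 9 genes in C2C12 cells and 38.1% to 44.3% in primary myoblasts. Ldb3 gave 11.3% to 31.0% and 9.14% to 12.2%, and Tcap 0.347% to 1.47% and 10.6% to 13.9%. At the M-band, Myom1 stood at 0.0385 to 0.0627 of the RPKM of Myom2 in C2C12 cells and at 0.564 to 0.732 in primary myoblasts. The non-muscle α-actinins Actn1 and Actn4 were at 64.0 to 102 and 71.8 to 116 RPKM over all 8 samples. With merged exons as length, both were above Actn3 in every C2C12 sample and below it in 3 of the 4 primary samples. With the longest transcript as length, Actn1 kept this order but Actn4 did not. Actn4 was then above Actn3 in both primary controls (160.6 against 155.6 and 182.6 against 69.2 RPKM). It was also above Actn3 in Septin9-deficient replicate 2 (160.7 against 148.3 RPKM). These shares describe 4 samples of each cell type and were not tested.

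**Figure D2:**
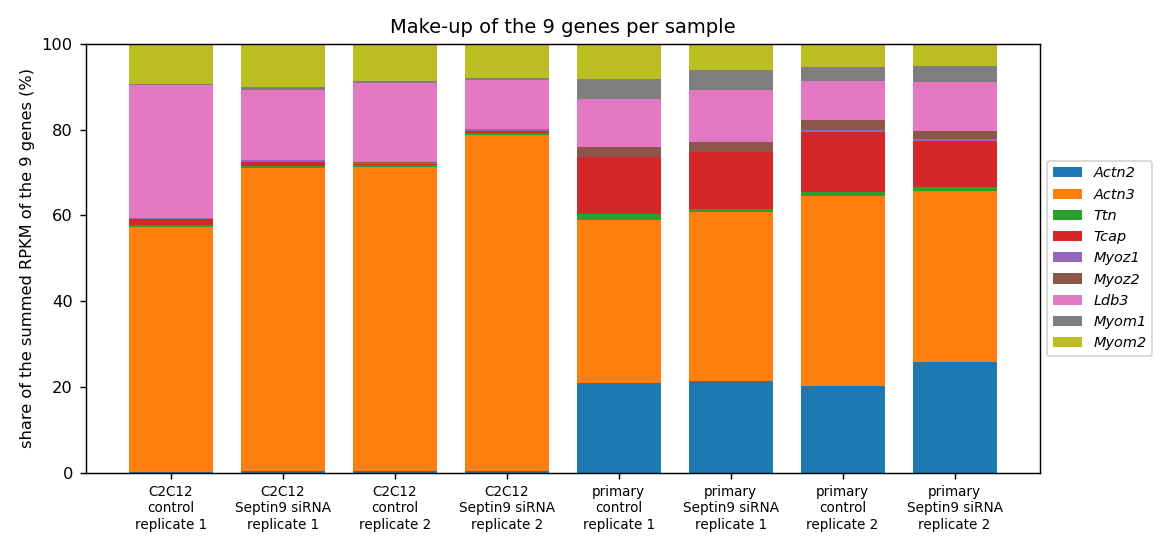
Share of each gene, in percent, in the summed RPKM of the 9 genes, 1 bar per sample. Actn2 and Tcap are thin slices in the 4 C2C12 bars, and Actn2 takes 20.3% to 25.8% of the 4 primary bars.

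In C2C12 cells the response to Septin9 siRNA was mixed in direction. Actn3, the α-actinin of fast glycolytic fibres, was the single gene called higher, 1 of the 5 that could be tested, against 0.828% of 15814 genes, and 0 of 5 were called lower, against 0.74%. By adjusted p alone, Actn3, Ttn and Myom2 rose (3 of 5, against 2.64% of genes) and Ldb3 fell (1 of 5, against 4.12%). The median log2 fold change of the 5 was 0.46 with 4 above 0, beside a median of -0.000787 and 49.8% above 0 over all genes tested. In a bulk culture, a change in RNA per cell and a change in the number of cells that express a gene cannot be told apart.

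Actn3 stood at 17.0 and 46.6 CPM in control replicates 1 and 2 and at 30.3 and 67.5 CPM in the Septin9-deficient partners. It was higher than its own control in both pairs, but control replicate 2 lay above Septin9-deficient replicate 1, so the groups overlapped. The fitted log2 fold change was 0.66 (SE 0.0815, adjusted p = 4.12e-05, edgeR). Ttn stood at 4.73 and 13.0 CPM in controls and at 7.01 and 17.1 CPM after Septin9 siRNA, a log2 fold change of 0.46 (SE 0.134, adjusted p = 0.0440). Myom2, the myomesin of fast adult fibres, stood at 8.40 and 17.5 CPM against 13.2 and 20.8 CPM, a log2 fold change of 0.41 (SE 0.119, adjusted p = 0.0406). Both overlapped between groups in the same way as Actn3, and for all 3 genes replicate 2 was the higher one in either group. Pair 2, with the higher control, gave the smaller log2 ratio for each. The ratios in pairs 1 and 2 were 0.83 and 0.54 for Actn3, 0.56 and 0.39 for Ttn and 0.64 and 0.24 for Myom2.

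Ldb3, which encodes the Z-disc protein ZASP or Cypher, went the other way. It stood at 19.5 and 25.5 CPM in controls and at 14.6 and 20.5 CPM in Septin9-deficient cells, and it was lower in both pairs, with log2 ratios of -0.41 and -0.31. The fitted log2 fold change was -0.36 (SE 0.0945, adjusted p = 0.0260, edgeR), which is short of the fold threshold. Relative to Actn3, the RPKM of Ldb3 was 0.543 and 0.260 in controls and 0.230 and 0.145 in their Septin9-deficient partners. Smooth muscle markers were also lower in both C2C12 pairs: the list of 4, of which 3 reached 1 CPM, summed, on the scaling over all 8 samples, to 2445 and 2974 CPM in controls and 1670 and 1997 CPM after Septin9 siRNA, mostly Acta2, with Myh11 at 0.257 CPM or less. In primary myoblasts the same list summed to 900 and 832 CPM in controls and 1267 and 852 CPM after Septin9 siRNA. The part of these markers in the result was not tested.

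Myom1 had 8 and 26 counts in C2C12 controls and 20 and 36 counts after Septin9 siRNA. It was higher in both pairs, at log2 ratios of 1.16 and 0.62, with a log2 fold change of 0.89 (SE 0.376) that did not pass the test (adjusted p = 0.201, edgeR). Its exons share 207 bases with Myl12a on the opposite strand, which reached 31338 counts, and those of Ttn share 453 bases with the antisense gene Gm13938. Whether reads were assigned by strand is not given in the sources used here, so the values of Myom1 and Ttn are uncertain to that extent. Actn2, Tcap, Myoz1 and Myoz2 were too low to test, at 8, 5, 4 and 2 counts over both controls and 14, 6, 7 and 4 over both Septin9-deficient samples. The ratios of their rates were 1.92 (95% exact interval 0.751 to 5.28, counting error only), 1.32 (0.335 to 5.45), 1.92 (0.488 to 8.94) and 2.19 (0.314 to 24.2), so a change of either direction was not detectable at this depth. None of the 5 tested genes had both Septin9-deficient samples above both controls, against 13.1% of genes. The call of Actn3 was lost without replicate 1 (log2 fold change 0.52, adjusted p = 0.487), in a fit of all 8 samples (adjusted p = 0.112, edgeR) and without the replicate block, where 0 of 5 passed even at an unadjusted p under 0.05. Ttn, Myom2 and Ldb3 kept their directions but passed neither in those fits nor in DESeq2 with the replicate block (adjusted p = 0.647, 0.573 and 0.586), in DESeq2 on the batch-corrected counts (0.157, 0.123 and 0.105) or without replicate 2 (0.664, 0.254 and 0.778).

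In primary myoblasts all 9 genes had positive fold changes and 6 of 9 were called higher: Actn2, Actn3, Tcap, Myoz2, Ldb3 and Myom1. The background was 2.87% of 17117 genes called higher, or 3.95% by adjusted p alone, which gave the same 6, and 0.298% called lower, with 0 of the 9. The median log2 fold change of the 9 was 0.70, beside 0.01 and 51.7% above 0 over all genes. Ttn, Myoz1 and Myom2 did not pass the test. In replicate pair 1 the median log2 ratio of the 9 was 0.32 and in pair 2 it was 1.21, and 7 of the 9 were above 0 in both, as were 32.6% of all genes tested.

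Both sarcomeric α-actinins rose. Actn2 stood at 314 and 116 CPM in control replicates 1 and 2 and at 409 and 357 CPM after Septin9 siRNA. Both Septin9-deficient samples lay above both controls, and the log2 fold change was 1.00 (SE 0.195, adjusted p = 0.00518, edgeR) with 0.38 in pair 1 and 1.62 in pair 2. Actn3 stood at 436 and 194 CPM against 579 and 423 CPM, with overlapping groups because control replicate 1 was above Septin9-deficient replicate 2. Its log2 fold change was 0.77 (SE 0.153, adjusted p = 0.00616), with 0.41 and 1.13 in the pairs. The non-muscle Actn1 and Actn4 did not pass the test, with log2 fold changes of -0.24 (adjusted p = 0.390) and -0.14 (adjusted p = 0.660). In C2C12 cells they were at -0.24 (adjusted p = 0.0474, short of the fold threshold) and -0.16 (adjusted p = 0.236).

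Among the proteins that bind α-actinin at the Z-disc, Ldb3 rose by about as much as Actn2, from 270 and 84.1 CPM in controls to 378 and 254 CPM, a log2 fold change of 1.03 (SE 0.181, adjusted p = 0.00231, edgeR). The groups overlapped by the higher control, and the pairs gave 0.48 and 1.59. Myoz2 rose from 30.3 and 12.4 CPM to 37.8 and 23.3 CPM, a log2 fold change of 0.60 (SE 0.138, adjusted p = 0.0155), just past the fold threshold. Myoz1 stood at 1.25 and 1.23 CPM in controls and at 1.498 and 2.59 CPM after Septin9 siRNA. It was the other gene, with Actn2, whose groups did not overlap, which makes 2 of 9 against 13.3% of genes tested, and its log2 fold change of 0.70 (SE 0.327) rested on 64 and 90 counts and did not pass (adjusted p = 0.287).

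For titin and its cap, the results of the tests differed. Tcap rose from 49.2 and 19.9 CPM to 63.2 and 36.7 CPM, a log2 fold change of 0.61 (SE 0.127, adjusted p = 0.00796, edgeR), with 0.36 and 0.88 in the pairs. Ttn stood at 640 and 172 CPM in controls and at 533 and 397 CPM after Septin9 siRNA. It was lower than its control in pair 1, at -0.26, and higher in pair 2, at 1.21, and the log2 fold change of 0.47 (SE 0.222) did not pass (adjusted p = 0.295). The myomesins also split, with Myom1 passing the test and Myom2 not. Differences between genes were not tested, here or for Tcap and Ttn. Myom1 rose from 191 and 50.7 CPM to 239 and 142 CPM, a log2 fold change of 0.89 (SE 0.182, adjusted p = 0.00674). Myom2 stood at 287 and 71.5 CPM against 276 and 169 CPM, with -0.06 and 1.24 in the pairs and a log2 fold change of 0.59 (SE 0.196) that did not pass (adjusted p = 0.106).

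In primary myoblasts the pair with the higher control level gave the smaller ratio, as for Actn3, Ttn, Myom1 and Myom2 in C2C12 cells. A ratio contains its control value. Primary control replicate 1 was 2.25 to 4.02 times control replicate 2 in 8 of the 9 genes and 1.02 times in Myoz1. Myog and Mymk, which drive and mark differentiation and fusion, were likewise 2.55 and 3.74 times higher in control replicate 1. Without replicate 2, the log2 fold changes of the 9 genes ran from -0.25 for Ttn to 0.50 for Ldb3. None reached 1.5-fold there, and Ttn and Myom2 were below 0. Without replicate 1, the log2 fold changes ran from 0.87 for Tcap to 1.60 for Actn2. No member was called with RLE size factors or library size as the scaling (adjusted p from 0.0513 to 0.0985 for the 6) or without the replicate block (adjusted p = 0.999975), and 1 of 9 was called by DESeq2 with the replicate block.

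**Figure D3:**
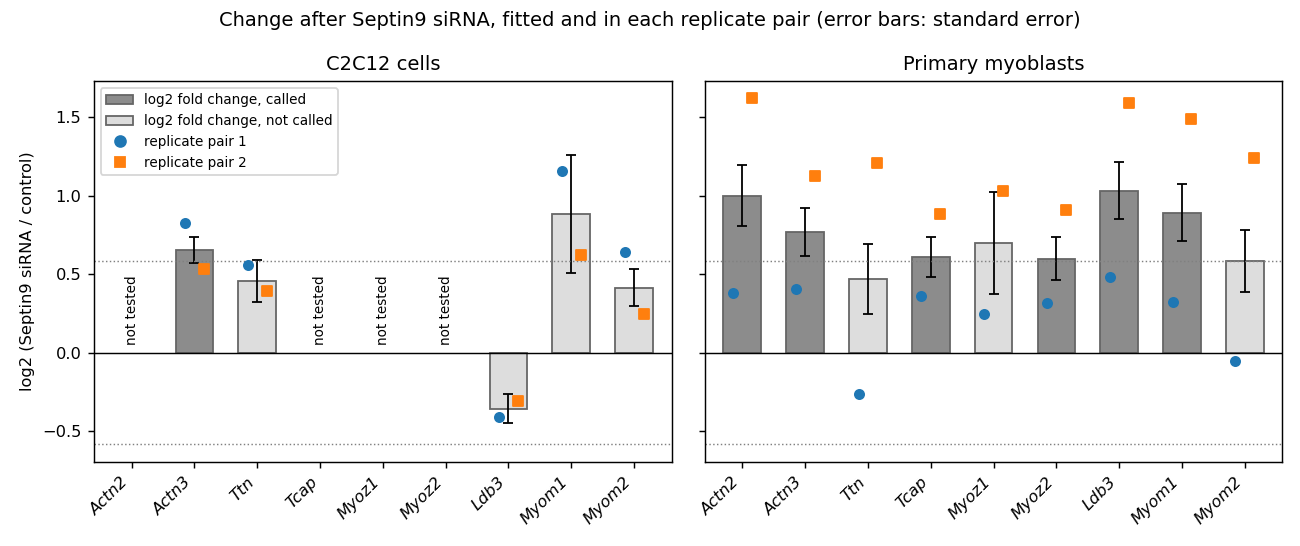
Log2 fold change after Septin9 siRNA in C2C12 cells (left) and primary myoblasts (right), as bars with the standard error and dark where called, with the log2 ratio of each replicate pair as points and the 1.5-fold threshold dotted. All 9 primary bars are above 0, pair 2 lies above pair 1 for each gene there, and Ldb3 is the one bar below 0 in C2C12 cells.

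Whether a gene responded differently in the 2 cell types was tested by the interaction term over all 8 samples. At an adjusted p under 0.05 it passed for 0% of 17918 genes in edgeR, with 1469 genes at an unadjusted p under 0.05, and DESeq2 called 21 genes, none of them among the 9. Ldb3 was the 1 of the 9 with an unadjusted p under 0.05. Its log2 fold change was 1.38 higher in primary myoblasts than in C2C12 cells (95% interval 0.73 to 2.03, unadjusted p = 0.000817, adjusted p = 0.284), and the adjusted p ranged from 0.217 to 0.999956 over the alternatives. Actn3, called in both cell types, had an interaction of 0.09 (95% interval -0.38 to 0.57, adjusted p = 0.972). For Ttn the interval ran from -0.98 to 0.98 and for Myom2 from -0.64 to 0.95, and for the other 5 genes it was wider than 3 log2 units, which leaves changes of either direction undetectable.

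The partners of these proteins were counted from lists of known genes, to be read beside the 2.87% of genes called higher and 0.298% called lower in primary myoblasts and the 0.828% and 0.74% in C2C12 cells. The adjusted p alone placed 3.95% higher and 1.04% lower in primary myoblasts, and 2.64% and 4.12% in C2C12 cells. Of 20 other Z-disc genes, 18 were tested in primary myoblasts, where 5 were called higher and 1 lower. The largest rises were those of Csrp3 (muscle LIM protein, log2 fold change 1.30) and Pdlim3 (the α-actinin-associated LIM protein, 0.89), beside Nebl (nebulette, an actin-binding protein of the Z-disc), which fell by 0.90 (adjusted p = 0.0318, edgeR). In C2C12 cells 15 were tested and Synpo2l alone was called higher, at 1.47, with none lower. By adjusted p alone 2 rose in C2C12 cells, Synpo2l and Des (desmin, 0.49, adjusted p = 0.000261, edgeR), and 1 fell, the PDZ-LIM gene Pdlim5 (-0.37, adjusted p = 0.00258), and in primary myoblasts 8 rose and 1 fell. The log2 fold change of Synpo2l in primary myoblasts was 0.41 (adjusted p = 0.129). The medians of the Z-disc list were 0.47 and 0.05 in primary myoblasts and C2C12 cells, near 0 in the latter as for all genes. In primary myoblasts its median log2 ratio was 0.13 in pair 1 and 0.73 in pair 2.

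Of 10 titin-associated genes, 4 of 10 tested were called higher in primary myoblasts: the ankyrin repeat genes Ankrd2 (1.41) and Ankrd23 (1.28), Cmya5 (myospryn, 1.20) and Trim63 (the ubiquitin ligase MuRF1, 0.81). In C2C12 cells 0 of 7 were called. By adjusted p alone 7 rose and 0 fell in primary myoblasts, while in C2C12 cells 0 rose and 2 fell, the LIM protein gene Fhl1 (-0.47, adjusted p = 0.000160, edgeR) and Ankrd1 (-0.37, adjusted p = 0.00298). In primary myoblasts Fhl1 was at 0.44 (adjusted p = 0.0281) and Ankrd1 at 0.03 (adjusted p = 0.958). The medians of the list were 0.52 in primary myoblasts and 0.22 in C2C12 cells, the latter with 3 of 7 genes below 0. In primary pairs 1 and 2 its median log2 ratios were 0.27 and 0.90. Of 8 other M-band and A-band genes, 6 of 8 were called higher in primary myoblasts, with Ckm (muscle creatine kinase) at 1.14, Unc45b (a myosin chaperone) at 0.97, Mybph (myosin binding protein H) at 0.88 and Smyd1 (a methyltransferase of the myofibril) at 0.72 among them. In C2C12 cells 2 of 7 were called higher, Smyd1 at 1.10 and Mybph at 1.08, while Ckm, at 0.54 (adjusted p = 0.511, edgeR), and Unc45b, at 0.46 (adjusted p = 0.671), did not pass. By adjusted p alone 7 and 2 rose and none fell, and the medians of the list were 0.86 and 0.54 in primary myoblasts and C2C12 cells. Its median log2 ratios in primary pairs 1 and 2 were 0.41 and 1.30. None of the 5 non-muscle paralogs was called in either cell type, and their medians were -0.24 and -0.20. Actn1, the non-muscle α-actinin, fell in C2C12 cells by adjusted p alone (-0.24, adjusted p = 0.0474, edgeR), with the same log2 fold change of -0.24 in primary myoblasts (adjusted p = 0.390). Neb was not analysed, because its line in the count table is broken.

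The state of the cultures was read from 2 further lists. Of 6 early differentiation genes, 5 were called higher in primary myoblasts and 4 in C2C12 cells, against 2.87% and 0.828% of genes. The median log2 ratios of the list in pairs 1 and 2 were 0.52 and 1.25 in primary myoblasts. In C2C12 cells they were 0.99 and 0.64. Myog, the transcription factor myogenin, rose by log2 fold changes of 0.89 and 1.03, and Mymk, the fusion protein myomaker, by 0.90 and 1.02. Acta1, skeletal α-actin, did not pass in either (-0.06, adjusted p = 0.914, and -0.40, adjusted p = 0.0841). Of 10 genes of dividing cells none was called in either cell type, with 2 and 6 lower by adjusted p alone, against 1.04% and 4.12% of genes, and medians of -0.32 and -0.28. Their summed level was 1143 and 1358 CPM in primary controls against 896 and 1088 CPM, and 1946 and 937 CPM in C2C12 controls against 1603 and 789 CPM. The part of these differences in the result was not tested.

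**Figure D4:**
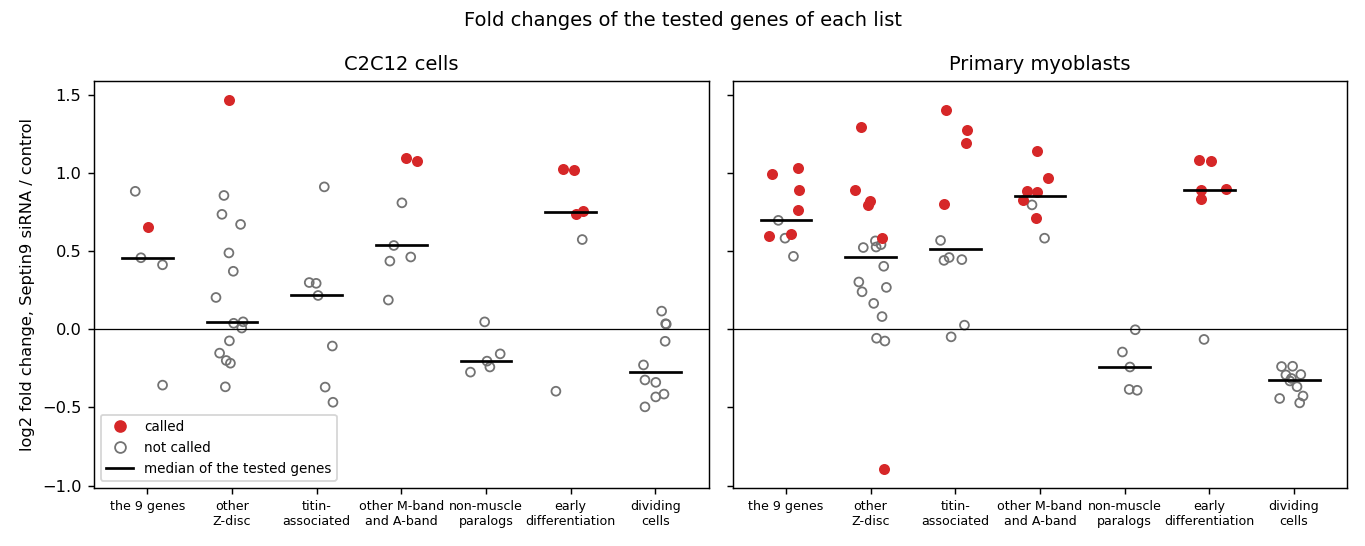
Log2 fold change after Septin9 siRNA of every tested gene of each list in C2C12 cells (left) and primary myoblasts (right), red where called, with the median as a line. Red points lie above 0 except Nebl in primary myoblasts, at -0.90.

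Over the 8 samples the 9 genes ran in parallel. The Pearson correlations of log2 CPM between pairs of them were 0.938 to 0.998 (36 pairs, median 0.9754). Within the 4 primary samples they were 0.100 to 0.999 (median 0.956), lowest for Myoz1 with Myom2. Among 15184 other genes, those most like the mean profile of the 9 over the 8 samples were Myh3 (embryonic myosin heavy chain, r = 0.9993), an entry named as a copy of the myosin light chain Myl1 (r = 0.9993), Septin1 (r = 0.9990), Txlnb (r = 0.9989) and Tnnc1 (slow and cardiac troponin C, r = 0.9988). Septin1 lies next to and overlaps Mylpf, a fast myosin light chain. The CPM of both, scaled over all 8 samples, were close in every primary sample. In Septin9-deficient replicate 1, for example, they were 3327 for Septin1 and 3324 for Mylpf. The study itself reported Septin1 as very low or undetectable while C2C12 cells and primary myoblasts differentiated, so the Septin1 value here is uncertain. These values share libraries and the split into cell types, and are descriptions.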

How the data were processed

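RNA-seq was analysed for 8 samples, grouped by cell type, siRNA and replicate number from their labels. Per the submitters' processing notes and the study's methods, the authors aligned reads to GRCm38.p6 with STAR 2.7.2, counted them per gene with featureCounts 2.0.1 against a Gencode annotation and deposited raw counts. They also deposited a normalized signal per cell type, counts adjusted by ComBat-Seq and divided by the size factors of DESeq2 (version 1.40.1 in the notes), from which 100% of values gave whole counts (tolerance 0.01). The 16 broken lines of the raw table, holding parts of 5 genes, were left out, leaving 42391 genes.

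Each cell type was fitted alone in R 4.3.3 with edgeR 4.0.16 (TMM, filterByExpr, quasi-likelihood test, Benjamini-Hochberg adjustment over all genes tested) with the replicate number as a block. The pairing comes from the independent experiments stated in the methods. Differences between replicates correlated between control and Septin9-deficient cells (r = 0.678 in C2C12 cells and 0.820 in primary myoblasts, across genes). DEGs met an adjusted p under 0.05 with a change of at least 1.5-fold. The interaction (nested block) and the comparison of controls (group means, no block) used all 8 samples. P-values rest on 2 experiments. Log2 ratios of pairs used a prior count of 2. Lengths came from GENCODE release M21, another release than the one the methods name. Exact intervals are Clopper-Pearson intervals at 95%.

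The 9 genes, the gene and marker lists, the motifs and the comparisons were chosen with earlier results of these data known. Named are Septin9, the 9 genes, Actn1, Actn4, Myog, Mymk, the 5 genes most like the mean profile and, per list, up to 4 called genes with the largest fold changes and any called lower; Acta1, Actn1, Ankrd1, Des, Fhl1, Neb, Mylpf, Myl12a, Pdlim5 and the marker genes were named after their values were seen. A single gene of the M-band and A-band list is not reported here and was left out of its counts and median. The fits were tested on simulated data: 100% of 200 genes changed by 2-fold were recovered in C2C12 cells and in primary myoblasts. Of the calls, 3.38% and 2.91% were false. The interaction recovered 96.5% at 2-fold, with 5.85% of calls false. The comparison of controls recovered 100% at 16-fold, with 9.50% false. Changed genes were drawn from those with a mean of at least 200 counts, so recovery at lower counts or smaller changes was not tested. Alternatives were RLE or library size scaling, other filters, no replicate block, DESeq2 1.42.0 on raw and on batch-corrected counts, 1 fit of all samples, adjusted p alone, each replicate left out, and longest transcripts. Python 3.11.15 with pandas 2.3.3 and scipy 1.17.1 did the rest.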

Additional observations from a re-analysis of the deposited data

Results flagged for a closer look

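Ldb3 moved in opposite directions in the 2 cell types: it was lower than its control in both C2C12 pairs (log2 ratios -0.41 and -0.31) and higher in both primary pairs (0.48 and 1.59). The difference between the fold changes was 1.38 on the log2 scale (SE 0.290, edgeR interaction term over all 8 samples, unadjusted p = 0.000817, adjusted p = 0.284), so it did not pass after adjustment over 17918 genes.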

How the results depend on the processing

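All values are counts of genes called unless stated. Without the replicate block, edgeR called 0 genes higher and 0 lower in either cell type (372 and 378 genes at an unadjusted p under 0.05 in C2C12 cells and primary myoblasts, none of the 9 among them). In C2C12 cells, against 131 higher and 117 lower, DESeq2 with the replicate block called 37 and 62, DESeq2 on the batch-corrected counts 71 higher, and 1 fit of all 8 samples 29 and 54 with 0 of the 9 genes. By adjusted p alone the counts were 417 and 651, with 3 of the 9 higher and 1 lower. Leaving out replicates gave 55 to 93 higher, 43 to 88 lower and 0 to 1 of the 9 genes higher.

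In primary myoblasts, against 491 higher and 51 lower, RLE size factors gave 225 higher and library size 165, each with 0 of the 9 (7 at an unadjusted p under 0.05), DESeq2 with the block 199 and 31 with 1 of the 9, DESeq2 on the batch-corrected counts 1 of the 9, and adjusted p alone 178 lower. Leaving out replicates gave 237 to 792 higher, 121 to 134 lower and 0 to 8 of the 9. Without replicate 2, the log2 fold changes of Ttn and Myom2 turned to -0.246 and -0.0378, and without replicate 1 both were called, at 1.19 and 1.22. The cause was not tested.

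The interaction by DESeq2 was called for 15 genes higher and 6 lower. It turned sign for Ttn by DESeq2 (-0.00857) and, without the block, for Actn2 (-0.0734), Ttn (-0.237), Myom1 (-0.186) and Myom2 (-0.0662), none of them called. In the comparison of controls, 90 of 90 refits of the 9 genes kept their call and direction, while leaving out a control sample gave 2083 to 3042 genes higher and 1963 to 2714 lower, against 3506 and 3226. With longest transcripts, 4 of 18 mean RPKM values moved by more than their SD: Myom1 (0.117 in C2C12 and 22.1 in primary controls), Myom2 in C2C12 (2.49) and Myoz1 in primary controls (0.990). Fits without a replicate take the spread from the samples left, with the other cell type. Low counts limit Actn2, Tcap, Myoz1, Myoz2 and Myom1 in C2C12 cells and Myoz1 in primary myoblasts.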
